A study of Mus musculus with 14 samples.

Results

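The myeloid C-type lectin receptors described here are 10 genes, chosen by symbol from a list of receptors of this class on myeloid cells: Clec7a, Clec4n, Clec4a1, Clec4a2, Clec4a3, Clec4e, Clec10a, Clec12a, Cd209a and Ly75. All 10 were present among the 23420 gene symbols of the count table, and they were chosen with earlier results of these data known. The cells were mouse dendritic cells (DCs) of the popliteal lymph node, sequenced in 14 libraries of 150 sorted cells each. The labelling method (LIPSTIC) uses the enzyme sortase A on one cell to attach a biotinylated peptide, LPETG, to a pentaglycine tag on a cell that it touches.

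All mice were C57BL/6, and ages are not given in the sources used here. For the biotin-sorted groups, Cd40G5/G5 recipients, labelled G5-Cd40+/+ in the genotype field, carried the tag on CD40. They received OVA323-339-pulsed Cd40G5/G5 DCs under the skin (500000 per footpad) and, 18 hours later, 300000 CD4+ T cells of the CD40lgSrtA/Y CD4-Cre OT-II genotype by vein, in which the Cd4 promoter drives Cre. Biotin-LPETG (300 nmol per footpad) was given at 46 hours and nodes were taken at 48 hours after the T cells. Endogenous DCs, high in MHC class II, positive for CD11c and CD11b and negative for XCR1, were sorted by label into 6 biotin-positive and 6 biotin-negative libraries. Another group, Cd40-null (2 libraries), came from Cd40-/- mice that received WT DCs and WT OT-II T cells on the same schedule and was not divided by biotin, so that genotype, transferred cells and sorting differ together. Whether libraries of a group came from separate mice is not given, and the p-values therefore refer to the spread between these samples, which may be technical.

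C-type lectin receptors are surface proteins with a carbohydrate-recognition fold, by which myeloid cells bind sugars and other ligands of microbes and dying cells. One branch passes an activating signal to the kinase SYK, either through a tyrosine motif of its own or through the adaptor FcRγ, and from there to CARD9 and NF-κB. A second branch carries inhibitory tyrosine motifs that recruit the phosphatases SHP-1 and SHP-2, and another mainly takes up ligands for antigen processing.

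In DCs that had taken up the label, transcripts of 9 of the 10 receptor genes lay at a lower mean level than in unlabelled DCs, and Ly75 at a higher one. Clec4a1, Clec4a3, Clec10a and Clec12a were lower in biotin-positive than in biotin-negative libraries at an edgeR adjusted p under 0.05, and the other 6 genes did not pass that threshold. Clec10a passed the filter on low counts only through the biotin-negative libraries, and its call was lost without biotin-negative replicate 4 (adjusted p = 0.0556). Among all 14217 genes tested, 7.75% were called in this comparison, of which 4.05% lower and 3.70% higher. The 9 genes other than Ly75 summed to 18.8 ± 9.33 CPM (counts scaled to a common library total, with TMM factors) in biotin-positive libraries, against 159 ± 48.9 CPM in biotin-negative (SD, n = 6 each) and 124 ± 34.7 CPM in Cd40-null libraries (SD, n = 2). No biotin-positive library, at 5.21 to 29.5 CPM, reached the lowest library of either other group, which stood at 99.1 CPM. In bulk libraries such as these, fewer cells of a type and less RNA per cell cannot be told apart.

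The libraries held 14518099 to 33260704 counts in the biotin-positive group, 16762804 to 28631847 in the biotin-negative group, and 23843843 and 19707746 in the Cd40-null group. Counts were found for 13090 to 13455 genes in biotin-positive libraries, 14225 to 15742 genes in biotin-negative libraries, and 13113 and 13596 genes in Cd40-null libraries. Because the number of detected genes did not overlap between the biotin groups, it cannot be told apart from the label. When that number was added to the fit as a covariate, 11 genes in all, 0 of the 10 receptor genes and 0 genes of the 3 pathway lists described below were called between the biotin groups. The gene targeted in the null mice, Cd40, stood at 1062 ± 163 CPM in biotin-positive libraries and 511 ± 78.7 CPM in biotin-negative libraries (SD, n = 6 each), and at 74.2 and 53.3 CPM in the Cd40-null libraries.

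The labelled cell type was checked against its markers. Flt3 (1015 ± 87.6, 849 ± 89.0 and 829 ± 92.3 CPM in biotin-positive, biotin-negative and Cd40-null libraries) and Ccr7 (2886 ± 352, 3260 ± 779 and 2728 ± 376 CPM) were abundant in every group. Of the 8 conventional DC markers 3 were called lower in biotin-positive than in biotin-negative libraries (4.05% of all genes tested) and 0 higher (3.70%). H2-Ab1, which encodes a chain of MHC class II, was at 230 ± 113 CPM in biotin-positive libraries, against 1245 ± 397 CPM in biotin-negative libraries, and the others called were Itgax, which encodes CD11c (55.5 ± 5.71 CPM in the biotin-positive group, against 139 ± 55.4 CPM in the biotin-negative group), and Dpp4. The 8 markers summed to 4181 to 5205 CPM in biotin-positive libraries, against 5396 to 6913 CPM in biotin-negative libraries and 4149 and 5117 CPM in Cd40-null libraries. Itgam, which encodes CD11b, stood at 1.91 ± 2.38 CPM in biotin-positive, 25.3 ± 21.3 CPM in biotin-negative and 14.7 ± 5.03 CPM in Cd40-null libraries, and Xcr1 was at most 4.47 CPM in the biotin-sorted libraries.

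**Figure D1:**
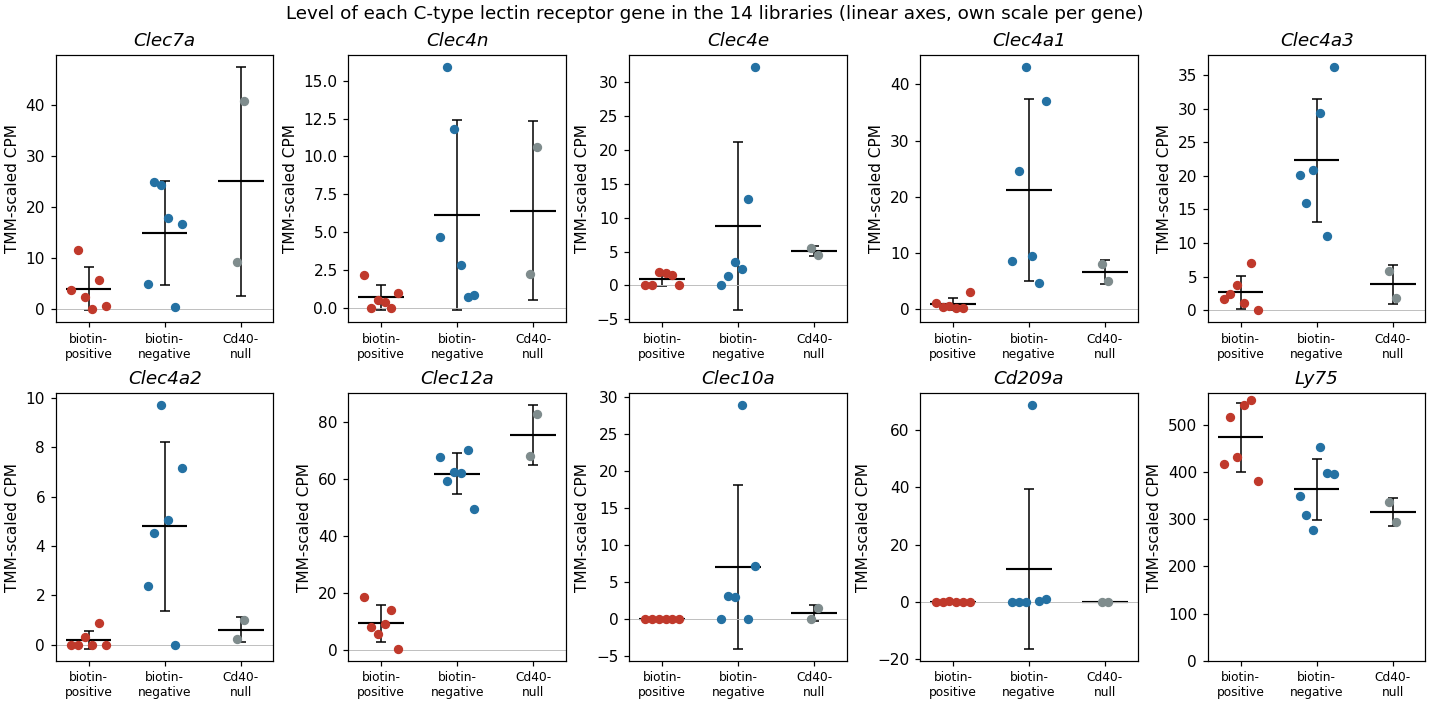
Level of each of the 10 receptor genes in TMM-scaled CPM (linear vertical axis, its own scale per gene) in biotin-positive, biotin-negative and Cd40-null libraries; each point is a library, the wide bar the mean and the error bar the SD. Clec4a1, Clec4a3 and Clec12a have no overlap between the biotin-positive and biotin-negative libraries, and Cd209a is carried by 1 biotin-negative library at 68.6 CPM.

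Most of these genes are neighbours in the genome (mm10, GENCODE M21 annotation). Clec4a1 (chr6:122921848-122934619, plus strand), Clec4a3 (chr6:122952515-122969875, plus), Clec4a2 (chr6:123106428-123143999, plus), Clec4n (chr6:123229843-123247021, plus) and Clec4e (chr6:123281789-123289870, minus) lie within 0.368 Mb. Clec12a (chr6:129342691-129365303, plus) and Clec7a (chr6:129461591-129472779, minus) lie within 0.13 Mb of each other on the same chromosome. Clec10a is at chr11:70156197-70170834 (plus), Cd209a at chr8:3743397-3748984 (minus) and Ly75 at chr2:60292103-60383303 (minus).

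Promoter windows, from 250 bases before to 50 bases after a RefSeq transcription start (GRCm38.p6), were found for 8 of the 10 genes, with 10 windows among them. They were searched on both strands for GAGGAA, the core bound by the myeloid factor PU.1 and other ETS proteins (TTCCTC on the other strand), and for an element of interferon regulatory factors, which reads GAAA, any 2 bases, GAAA (TTTC, any 2 bases, TTTC on the other strand). GAGGAA was found in 6 windows of 5 genes (Clec4a1, Clec4a3, Clec4e, Clec7a and Clec12a), and it occurs in 28.3% of all 32851 promoter windows. The windows of Clec7a overlap and hold the same site, which is thus counted more than once. Another window of Clec4a3 (chr6:122952265-122952564) has no match and is not shown. The interferon element was in 0 of the 10 windows and in 3.44% of all. The windows shown are those of the called genes Clec12a, Clec4a1 and Clec4a3, and that of Ly75, whose mean was higher in biotin-positive libraries without passing the threshold; capitals mark GAGGAA or TTCCTC. Each is written 5′ to 3′ on the strand of the gene.
Clec12a (chr6:129349994-129350293, plus strand): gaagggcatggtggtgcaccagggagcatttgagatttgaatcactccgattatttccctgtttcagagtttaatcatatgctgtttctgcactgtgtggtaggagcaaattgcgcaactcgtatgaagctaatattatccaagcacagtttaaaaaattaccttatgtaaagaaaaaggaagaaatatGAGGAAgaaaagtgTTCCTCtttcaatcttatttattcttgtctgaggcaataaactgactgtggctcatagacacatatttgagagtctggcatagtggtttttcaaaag
Clec4a1 (chr6:122921598-122921897, plus strand): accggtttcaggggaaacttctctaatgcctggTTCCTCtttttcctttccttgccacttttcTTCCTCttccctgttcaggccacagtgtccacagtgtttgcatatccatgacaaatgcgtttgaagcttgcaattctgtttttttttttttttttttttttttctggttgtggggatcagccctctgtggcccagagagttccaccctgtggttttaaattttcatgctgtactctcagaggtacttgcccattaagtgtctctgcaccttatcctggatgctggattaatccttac
Clec4a3 (chr6:122952394-122952693, plus strand): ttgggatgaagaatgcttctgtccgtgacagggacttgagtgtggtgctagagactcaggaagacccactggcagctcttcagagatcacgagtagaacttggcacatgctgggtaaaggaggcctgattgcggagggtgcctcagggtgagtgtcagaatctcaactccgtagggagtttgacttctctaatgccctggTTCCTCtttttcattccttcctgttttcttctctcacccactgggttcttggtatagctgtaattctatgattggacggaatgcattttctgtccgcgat
Ly75 (chr2:60383224-60383523, minus strand): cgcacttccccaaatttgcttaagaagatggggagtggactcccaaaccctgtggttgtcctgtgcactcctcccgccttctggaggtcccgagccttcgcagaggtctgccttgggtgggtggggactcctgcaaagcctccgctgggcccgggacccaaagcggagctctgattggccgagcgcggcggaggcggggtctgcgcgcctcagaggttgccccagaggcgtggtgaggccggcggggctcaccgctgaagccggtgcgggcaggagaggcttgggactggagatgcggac
In Clec12a the motif lies 61 bases before the start on the gene's strand and again 47 bases before it on the other strand. Clec4a1 has it on the other strand at 217 and 187 bases before the start, Clec4a3 at 50 bases before the start of the window shown, and Ly75 has none here. A match of letters is a description of the window and not evidence of binding.

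Clec7a, Clec4n and Clec4e belong to the activating branch. Clec7a encodes Dectin-1, the receptor for fungal β-glucans. Its level was 0, 3.02 and 11.5 CPM (lowest, median and highest) in the 6 biotin-positive libraries, against 0.409, 17.3 and 25.0 CPM in the 6 biotin-negative libraries and 9.17 and 40.9 CPM in the Cd40-null libraries. Replicates 2, 3, 4 and 6 of the biotin-negative group were above every biotin-positive library, and replicates 1 and 5 were inside the biotin-positive range. The log2 fold change, biotin-positive over biotin-negative, was -1.90 (SE 0.89), with an edgeR adjusted p of 0.235.

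Clec4n encodes Dectin-2, which binds mannans and signals through FcRγ. It was at 0, 0.440 and 2.15 CPM (lowest, median, highest) in biotin-positive libraries, against 0.715, 3.73 and 15.9 CPM in biotin-negative libraries and 2.21 and 10.6 CPM in Cd40-null libraries. Biotin-negative replicates 2 and 3, at 15.9 and 11.8 CPM, stood well above the other 4, and the groups overlapped. The difference between the biotin groups did not pass the threshold (log2 -3.19, SE 1.11, edgeR adjusted p = 0.0961), whereas DESeq2 called it (log2 -3.19, adjusted p = 0.0150).

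Clec4e encodes Mincle, a receptor for mycobacterial glycolipid that also pairs with FcRγ. Its levels were 0, 0.774 and 1.97 CPM in biotin-positive libraries (lowest, median, highest), against 0.0357, 2.93 and 32.2 CPM in biotin-negative libraries and 5.55 and 4.49 CPM in Cd40-null libraries. Biotin-positive replicates 1, 2 and 6 had no count, and replicates 6 (32.2 CPM) and 5 (12.8 CPM) carried most of the biotin-negative signal. Between the biotin groups the log2 difference was -3.30 (SE 1.30, edgeR adjusted p = 0.145), and it turned to 0.33 when detected genes were a covariate.

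Clec4a1, Clec4a3 and Clec4a2 belong to the dendritic cell immunoreceptor (DCIR) family, and Clec4a2 carries an inhibitory motif. Clec4a1 was at 0.0709, 0.447 and 2.94 CPM (lowest, median, highest) in biotin-positive libraries, against 4.60, 17.0 and 43.1 CPM in biotin-negative libraries. Every biotin-positive library was below every biotin-negative library. Clec4a1 fell 25.2-fold in biotin-positive relative to biotin-negative libraries (log2 difference -4.66, SE 0.80, edgeR adjusted p = 0.00142). The Cd40-null libraries, at 8.05 and 5.01 CPM, lay between, inside the biotin-negative range and above all biotin-positive libraries.

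Clec4a3 stood at 0, 2.04 and 7.05 CPM (lowest, median, highest) in biotin-positive libraries, against 11.1, 20.5 and 36.2 CPM in biotin-negative libraries. Again no libraries overlapped, and the gene was 8.29-fold lower in the biotin-positive group (log2 -3.05, SE 0.70, edgeR adjusted p = 0.0123). In Cd40-null libraries it was at 5.87 and 1.81 CPM, within the biotin-positive range and below every biotin-negative library. Biotin-negative over Cd40-null libraries differed by a log2 of 2.53 (SE 1.08), which did not pass the threshold (edgeR adjusted p = 0.499).

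Clec4a2, the DCIR gene itself, had counts in 2 of 6 biotin-positive libraries, with a highest value of 0.897 CPM, and in 5 of 6 biotin-negative libraries, with a median of 4.79 and a highest value of 9.70 CPM. The Cd40-null libraries were at 0.241 and 0.981 CPM. Biotin-negative replicate 5, at 0, was the library that overlapped the biotin-positive group. The log2 difference between the biotin groups was -4.45 (SE 1.41) and missed the threshold (edgeR adjusted p = 0.0654). It passed with DESeq2 (adjusted p = 0.00554), without biotin-positive replicate 5 (log2 -6.10, adjusted p = 0.0229) and without biotin-negative replicate 5 (log2 -4.70, adjusted p = 0.0311). Of the 38-base windows in Clec4a2 transcripts, 8.96% are also present in another gene, most often Clec4a4 (4.43%). How far this sharing affects its level was not tested.

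Clec12a encodes MICL, an inhibitory receptor that recognises uric acid crystals of dead cells. It was at 0.670, 8.69 and 18.9 CPM (lowest, median, highest) in biotin-positive libraries, against 49.6, 62.4 and 70.2 CPM in biotin-negative libraries and 68.0 and 82.8 CPM in Cd40-null libraries. Biotin-positive libraries were all below both other groups, whose ranges overlapped. The gene was 6.53-fold lower in biotin-positive than in biotin-negative libraries (log2 difference -2.71, SE 0.45, edgeR adjusted p = 0.00113). Among the 10 genes Clec12a had the smallest relative spread within the biotin-negative group, with a coefficient of variation of 11.6%, against 17.6% for Ly75, 40.9% for Clec4a3 and 68.4% to 240% for the other 7.

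Clec10a encodes the galactose-binding lectin MGL1, which takes up glycosylated antigens. No read was counted for it in any of the 6 biotin-positive libraries. In the biotin-negative libraries it was at 0, 3.07 and 28.9 CPM (lowest, median, highest), with 2 of 6 at 0, and the Cd40-null libraries had 0 and 1.55 CPM. Set against a floor of 3 counts over the group (0.0261 CPM), biotin-positive libraries were at least 270-fold lower than biotin-negative libraries (edgeR adjusted p = 0.0250), and at least 102-fold lower without biotin-negative replicate 4, the highest library. Such floors cover counting error only, since these reads carry no molecular identifiers. The call was lost without that replicate (adjusted p = 0.0556) and with limma voom (adjusted p = 0.121). Clec10a passed the filter on low counts only through the biotin-negative libraries, and 11.5% of its 38-base windows are shared with its close relative Mgl2.

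Cd209a encodes a mouse homologue of the mannose-binding receptor DC-SIGN. It had counts in 1 of 6 biotin-positive libraries (0.460 CPM), in 3 of 6 biotin-negative libraries (0.153, 0.974 and 68.6 CPM) and in 0 of 2 Cd40-null libraries. Biotin-negative replicate 4 alone held 1180 of the group's 1200 counts, and the median of the group was 0.0767 CPM. The gene passed the filter through biotin-negative libraries only, and the difference between the biotin groups was not called (edgeR adjusted p = 0.0693).

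Ly75 encodes DEC-205, an endocytic receptor of the mannose receptor family that is abundant on Langerhans cells and on DCs that have migrated from tissue. It was at 380, 474 and 553 CPM (lowest, median, highest) in biotin-positive libraries, against 278, 372 and 453 CPM in biotin-negative libraries and 336 and 295 CPM in Cd40-null libraries. The biotin groups overlapped, and no Cd40-null library reached the lowest biotin-positive library. Between the biotin groups the log2 difference of 0.38 (SE 0.13, 1.30-fold) missed the threshold with edgeR (adjusted p = 0.0755). It passed with DESeq2 (log2 0.37, adjusted p = 0.0423) and without biotin-negative replicate 4 (log2 0.44, adjusted p = 0.0409). Ly75 made up 96.3% of the summed CPM of the 10 genes in biotin-positive libraries (range 93.8% to 98.6%), against 69.8% in biotin-negative (60.9% to 79.9%) and 71.9% in Cd40-null libraries (66.6% and 77.2%).

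Levels of different genes were compared per kilobase of exon. On that scale Ly75 was the most abundant of the 10 in every group, at 68.5 ± 10.5 CPM per kb in biotin-positive, 52.7 ± 9.26 in biotin-negative (SD, n = 6 each) and 45.7 ± 4.18 in Cd40-null libraries (SD, n = 2). In biotin-negative libraries Clec4a3 (16.8 ± 6.87 CPM per kb), Clec4a1 (13.6 ± 10.4) and Clec12a (11.2 ± 1.31) followed, and these neighbours did not differ beyond their spread. Cd209a (7.34 ± 17.6), Clec7a (5.63 ± 3.85), Clec4n (4.31 ± 4.43), Clec10a (2.43 ± 3.81), Clec4e (1.76 ± 2.49) and Clec4a2 (1.64 ± 1.17) came below, each within the spread of the next. In biotin-positive libraries the 9 genes after Ly75 were all at or below the 2.00 ± 1.88 CPM per kb of Clec4a3, with Clec12a at 1.71 ± 1.2 and Clec7a at 1.51 ± 1.60. In Cd40-null libraries the order after Ly75 began with Clec12a (13.6 ± 1.89), Clec7a (9.50 ± 8.52), Clec4n (4.52 ± 4.19), Clec4a1 (4.19 ± 1.38) and Clec4a3 (2.89 ± 2.17).

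Seen as a list, 4 of the 10 genes were called lower and 0 higher between the biotin groups, and all 10 had an unadjusted p under 0.05 (9 lower and Ly75 higher), against 21.1% of all genes tested. Groups did not overlap for 3 of the 10 genes, all lower in biotin-positive libraries, against 5.02% of all genes tested (2.41% lower). The median log2 fold change of the 10 genes was -3.24, against -0.03 over all genes tested, and it is the same with Clec10a at its bound. These counts include Clec10a and Cd209a, which passed the filter only through the group where they are high. Without them 3 of 8 genes were called lower, 7 of 8 had an unadjusted p under 0.05 with a lower level and Ly75 with a higher one, and the median log2 fold change was -3.12. DESeq2 called 7 of the 10, of which 6 were lower (Clec4n, Clec4a1, Clec4a2, Clec4a3, Clec10a and Clec12a) and 1 higher (Ly75). Over all genes DESeq2 also called more, with 1589 (855 lower and 734 higher) against 1102 with edgeR.

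**Figure D2:**
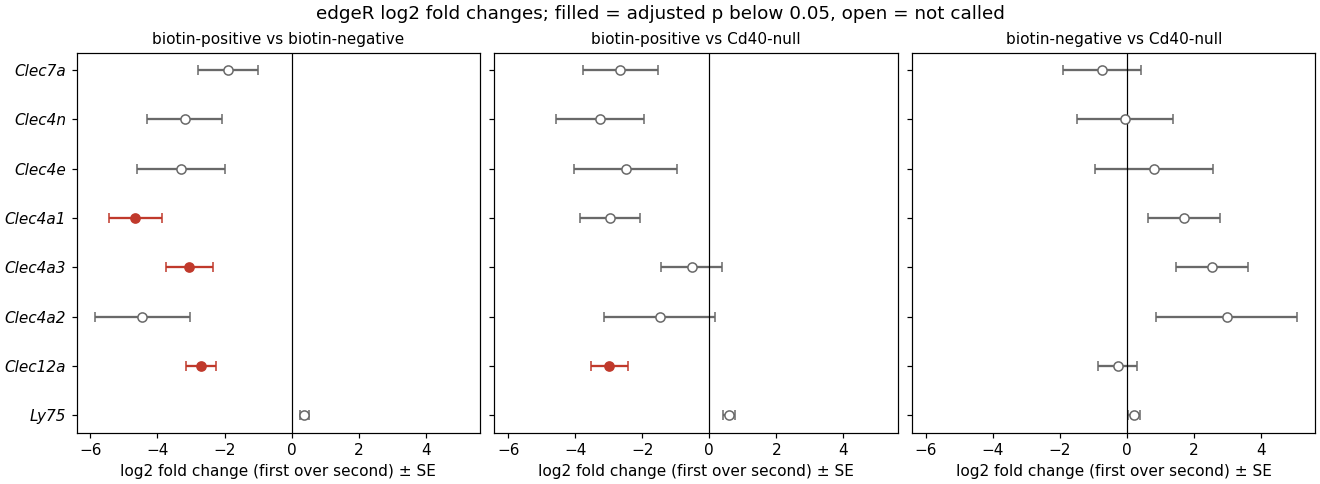
Log2 fold changes with SE from edgeR for 8 of the 10 receptor genes in the 3 comparisons, first-named group over second; filled points have an adjusted p below 0.05. Clec10a and Cd209a are left out because a group is at 0 in at least 1 of the comparisons. Clec4a1, Clec4a3 and Clec12a are called in the left panel, Clec12a alone in the middle panel and 0 genes in the right panel.

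Set against DCs that lack CD40, the same biotin-positive libraries were used again, so that this comparison is not independent of the first. Clec12a was 7.94-fold lower in biotin-positive than in Cd40-null libraries (log2 -2.99, SE 0.55, edgeR adjusted p = 0.00658). It was the 1 receptor gene of 10 that was called, against 2.27% of all genes tested (1.05% called lower). The call was lost without Cd40-null replicate 2 (log2 -2.84, adjusted p = 0.0659) and in a fit of these 2 groups only (log2 -3.00, adjusted p = 0.0537). In all, 6 of the 10 genes had an unadjusted p under 0.05 (5 of 8 without Clec10a and Cd209a), against 13.8% of all genes, and the median log2 fold change of the 10 was -2.58, against 0.04 over all genes.

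Of the other receptor genes, Clec4a1 differed by a log2 of -2.96 (SE 0.90, edgeR adjusted p = 0.109) between biotin-positive and Cd40-null libraries. It was called without biotin-positive replicate 6, its highest library in that group (log2 -3.99, adjusted p = 0.0181), and with DESeq2 (log2 -2.97, adjusted p = 0.0400). Ly75 differed by 0.58 (SE 0.18, edgeR adjusted p = 0.122) and was called with DESeq2 (adjusted p = 0.0346). Clec7a, Clec4n and Clec4e gave log2 differences of -2.65 (SE 1.11), -3.26 (SE 1.32) and -2.50 (SE 1.55), at adjusted p of 0.287, 0.266 and 0.512. Clec4a2 and Clec4a3 gave -1.48 (SE 1.65) and -0.52 (SE 0.91), and the Clec4a3 difference turned to 0.57 without Cd40-null replicate 1. Clec10a was at least 29.7-fold lower against its floor in biotin-positive libraries, with an edgeR adjusted p of 0.225. That bound rests on the 30 counts of Cd40-null replicate 2, without which both groups are at 0.

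Biotin-negative and Cd40-null DCs were compared as the groups without label. None of the 10 receptor genes was called by edgeR, DESeq2 or limma voom, against 0.317% of all genes by edgeR, and Clec4a3 and Cd209a of the 10 had an unadjusted p under 0.05, against 9.22% of all genes. Cd209a passed the filter only through biotin-negative libraries, and without it and Clec10a the count is 1 of 8. Clec12a (log2 -0.28, SE 0.59), Clec4n (-0.07, SE 1.43), Clec7a (-0.75, SE 1.17) and Ly75 (0.20, SE 0.18) had differences below their SE for the first 3 and near it for Ly75. Without Cd40-null replicate 2 Clec7a turned to 0.69 and Clec4n to 1.46, and Clec4n was also above 0 without biotin-negative replicate 4, 5 or 6 (0.07, 0.17 and 0.16). Clec4a1 (1.70, SE 1.07), Clec4a2 (2.97, SE 2.1), Clec4e (0.80, SE 1.76) and Clec10a (3.19, SE 2.56) had higher means in biotin-negative libraries, and Clec4e turned to -0.32 without biotin-negative replicate 6. Cd209a was at least 171-fold higher in biotin-negative libraries against the Cd40-null floor of 0.0678 CPM, a value set by biotin-negative replicate 4 (adjusted p = 0.519). The median log2 of the 10 was 1.25, or 0.50 without Clec10a and Cd209a, against 0.06 over all genes.

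The signalling partners of these receptors were read from a list of 18 genes, all of which were tested. Between the biotin groups 4 were called lower and 1 higher, and 13 were not called. Over all genes tested 4.05% were called lower and 3.70% higher. The list's median log2 fold change was -0.04, against -0.03 over all genes. With detected genes as a covariate 0 of the 18 were called, with adjusted p of 0.335 for Syk, 0.101 for Fcer1g, 0.274 for Prkcd and 0.472 for Ptpn6. Syk, the kinase downstream of the activating receptors, was at 31.0, 47.9 and 61.3 CPM (lowest, median, highest) in biotin-positive libraries, and its mean of 46.4 ± 10.3 CPM compares with 128 ± 24.2 CPM in biotin-negative (SD, n = 6 each) and 94.1 ± 22.6 CPM in Cd40-null libraries (SD, n = 2). The biotin groups did not overlap, and Syk was 2.76-fold lower in biotin-positive libraries (log2 -1.46, SE 0.17, edgeR adjusted p = 4.99e-05). Fcer1g, which encodes FcRγ, fell to 114 ± 16.3 CPM in biotin-positive libraries, against 203 ± 54.5 CPM in biotin-negative libraries (log2 difference -0.83, SE 0.15, edgeR adjusted p = 0.00270), again with no overlap.

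Prkcd, the kinase that links SYK to CARD9, was at 224 ± 17.7 CPM in biotin-positive libraries, against 316 ± 43.4 CPM in biotin-negative libraries (log2 difference -0.50, SE 0.10, edgeR adjusted p = 0.00443). Lyn, a SRC-family kinase that phosphorylates such receptors, was at 100 ± 18.3 CPM in the biotin-positive and 151 ± 25.1 CPM in the biotin-negative group (log2 difference -0.59, SE 0.14, edgeR adjusted p = 0.0125); it lies outside the rule for named genes and was chosen after its values were seen. Ptpn6, which encodes SHP-1, was the gene called higher, at 295 ± 38.2 CPM in biotin-positive libraries, against 184 ± 33.4 CPM in biotin-negative libraries (log2 difference 0.68, SE 0.13, edgeR adjusted p = 0.00246). The signalling adaptor Card9 (0.32, SE 0.22, edgeR adjusted p = 0.455), its partners Bcl10 (0.07, SE 0.20) and Malt1 (-0.28, SE 0.17), and the adaptor Tyrobp (-0.11, SE 0.18) were not called. Against Cd40-null libraries 2.27% of all genes tested were called (1.05% lower), and 2 of the 18, both lower in biotin-positive libraries. These were Syk (log2 -1.02, SE 0.23, edgeR adjusted p = 0.0248) and Prkcd (log2 -0.75, SE 0.13, edgeR adjusted p = 0.00605). Syk lost its call without either Cd40-null replicate (adjusted p = 0.439 and 0.0571), without biotin-positive replicate 3 (0.0505) and in a fit of the 2 groups only (0.0552), and Prkcd lost it without either Cd40-null replicate (0.0694 and 0.0998). Between biotin-negative and Cd40-null libraries edgeR, DESeq2 and limma voom called 0 of 18. With edgeR 1 of the 18 had an unadjusted p under 0.05, against 9.22% of all genes tested.

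**Figure D3:**
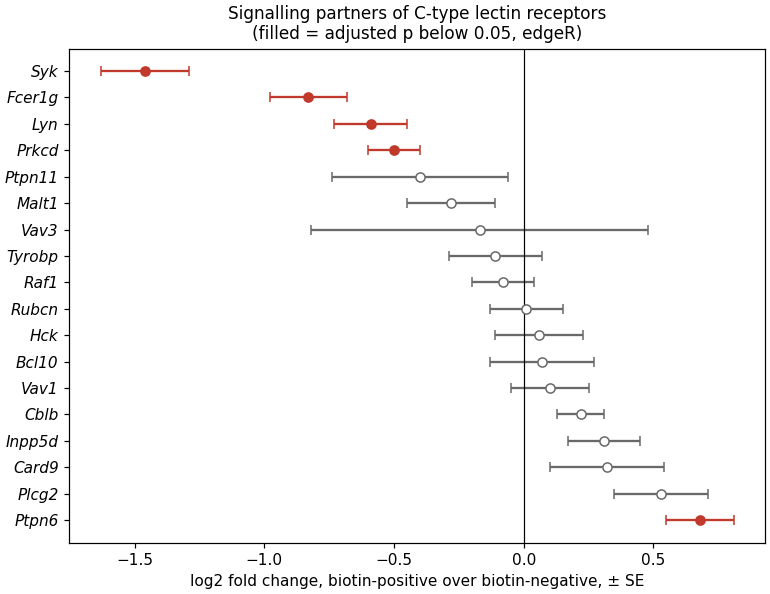
Log2 fold change with SE, biotin-positive over biotin-negative, for the 18 signalling partners, ordered by value; filled points have an edgeR adjusted p below 0.05. Syk at -1.46 is the lowest and Ptpn6 at 0.68 the highest, and 13 genes are not called.

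A list of 34 other C-type lectin genes held 22 that passed the filter on low counts, of which 1 was called higher and 4 lower between the biotin groups, and 0 with detected genes as a covariate. Over all genes tested 3.70% were called higher and 4.05% lower without the covariate. Cd207 encodes langerin, the lectin of Langerhans cell granules. It rose to 105 ± 19.3 CPM in biotin-positive libraries, against 27.6 ± 15.8 CPM in biotin-negative libraries (log2 difference 1.94, SE 0.33, edgeR adjusted p = 0.00130), with no overlap. Clec2i, a lectin-like ligand of NK cell receptors, was at 7.51 ± 7.16 CPM in the biotin-positive and 31.5 ± 10.3 CPM in the biotin-negative group (log2 difference -2.06, SE 0.44, edgeR adjusted p = 0.00669). Mrc1, the mannose receptor, had no count in any biotin-positive or Cd40-null library and 0 to 13.2 CPM in biotin-negative libraries (4.73 ± 5.64). It was at least 181-fold lower in biotin-positive than in biotin-negative libraries (edgeR adjusted p = 0.0122), or at least 116-fold without biotin-negative replicate 6, and it was not called with limma on the deposited normalized signal (adjusted p = 0.0916). Clec4b1, which encodes the activating receptor DCAR, was also at 0 in biotin-positive libraries, against 1.49 ± 1.51 CPM in biotin-negative libraries, at least 57.0-fold lower (edgeR adjusted p = 0.0122). Both genes passed the filter on low counts only through the biotin-negative libraries, where they are high. Mgl2, the close relative of Clec10a, was at 0.445 ± 0.118 CPM in biotin-positive against 8.49 ± 14.5 CPM in biotin-negative libraries (log2 difference -4.23, SE 1.00, edgeR adjusted p = 0.0145) and was likewise chosen after its values were seen. Its groups overlapped, at 0.258 to 0.588 CPM in the biotin-positive group, against 0.357 to 37.8 CPM in the biotin-negative group, and its call was lost without biotin-negative replicate 6, with limma voom and on the normalized signal.

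When the Cd40-null libraries were left out of the fit, 2 of these genes were called, Cd207 and Clec2i. For biotin-positive against Cd40-null libraries edgeR called 0 of the 22 (5 at an unadjusted p under 0.05), DESeq2 called 3 and limma voom 4. Over all genes tested edgeR called 2.27% (13.8% at an unadjusted p under 0.05), DESeq2 called 803 genes and limma voom 603. Of the 22, edgeR called 1 without biotin-positive replicate 5 (Clec2i) and 1 without biotin-negative replicate 1 (Cd207). For biotin-negative against Cd40-null libraries the numbers of the 22 called were 0 with edgeR (4 at an unadjusted p under 0.05), 2 with DESeq2 and 0 with limma voom. Over all genes tested edgeR called 0.317% (9.22% at an unadjusted p under 0.05), DESeq2 called 273 genes and limma voom 53.

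Genes that respond to signals of this receptor class, such as cytokines and early transcription factors, were read from a list of 15, of which 11 were tested. Between the biotin groups 4 were called lower (4.05% of all genes tested) and 0 higher (3.70%), and 0 with detected genes as a covariate. Il1rn, the interleukin-1 receptor antagonist, was at 12.9 ± 4.89 CPM in biotin-positive libraries, against 77.0 ± 32.6 CPM in biotin-negative libraries (log2 difference -2.58, SE 0.32, edgeR adjusted p = 7.38e-05). Nfkbiz, a nuclear regulator of NF-κB targets, was at 37.8 ± 11.2 CPM in the biotin-positive and 113 ± 31.0 CPM in the biotin-negative group (log2 difference -1.57, SE 0.22, edgeR adjusted p = 0.000218). Il1b, the cytokine interleukin-1β, was at 4.84 ± 4.79 CPM in the biotin-positive and 102 ± 69.4 CPM in the biotin-negative group (log2 difference -4.38, SE 0.83, edgeR adjusted p = 0.00429). These 3 genes did not overlap between the biotin groups. Ptgs2, which encodes the prostaglandin-forming enzyme COX-2, ran from 0.339 to 3.31 CPM in biotin-positive and from 0.581 to 121 CPM in biotin-negative libraries (log2 difference -4.82, SE 0.87, edgeR adjusted p = 0.00231) and was not called with limma voom (adjusted p = 0.217).

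Against Cd40-null libraries edgeR called 0 of the 11 response genes in biotin-positive libraries, against 2.27% of all genes tested. Of the 11, 3 had an unadjusted p under 0.05, against 13.8% of all genes. DESeq2 called 2 of the 11 and limma voom 0, and edgeR called 1, Il1rn, without biotin-negative replicate 1. In biotin-negative libraries 1 of the 11 was called against Cd40-null libraries, where 0.317% of all genes were called. The called gene was Nfkbiz, higher at 113 ± 31.0 CPM, against 22.8 and 32.1 CPM in the Cd40-null libraries (log2 2.04, SE 0.34, edgeR adjusted p = 0.0102). That call was lost without either Cd40-null replicate (adjusted p = 0.225 and 0.113) and with detected genes as a covariate (0.370).

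The summed markers of some other cell types were also lower in biotin-positive than in biotin-negative libraries, and those of others were not. Of 25 monocyte and macrophage markers 23 were tested. Of these markers 11 were called lower (4.05% of all genes tested) and 0 higher (3.70%) in biotin-positive than in biotin-negative libraries. Their summed level was 117 to 268 CPM in biotin-positive libraries, against 350 to 1345 CPM in biotin-negative libraries and 543 and 372 CPM in Cd40-null libraries, with no overlap between the biotin groups. Lyz2, the most abundant, was at 35.6 ± 21.0, 315 ± 280 and 215 ± 134 CPM, and Adgre1, listed under the older symbol Emr1, had medians of 20.6, 66.5 and 53.8 CPM in biotin-positive, biotin-negative and Cd40-null libraries. Of the defining markers, Vsig4 was at 0 in all 14 libraries and Chi3l3 in all biotin-positive and Cd40-null libraries, and Mertk was at 0 in both Cd40-null libraries. The part of these cells in the receptor differences was not tested.

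Biotin-negative replicates 1 and 5, which had the lowest sums of these markers in their group (350 and 390 CPM), also had the lowest sums of the 9 receptor genes without Ly75 (108 and 100 CPM). Replicate 4 had the highest of both, at 1345 and 227 CPM. Of its receptor sum 68.6 CPM was Cd209a and 28.9 CPM Clec10a. Without Cd209a that sum would lie below the 188 CPM of replicate 6, so its rank rests on 1 gene. Clec12a did not follow that order, since replicates 1 and 5 had its highest levels in the group, 67.9 and 70.2 CPM. Markers of type 2 conventional DCs summed to 152 to 326 CPM in biotin-positive libraries, against 440 to 555 CPM in biotin-negative libraries and 464 and 477 CPM in Cd40-null libraries. Of these 7 markers 3 were called lower between the biotin groups (Itgam, Sirpa and Zeb2), against 4.05% of all genes tested. The part of these markers in the receptor differences was not tested either.

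The summed markers of 2 other DC types did not overlap between the biotin groups either, in each case with 1 called gene. Of 7 cDC1 markers 6 were tested and 1 was called higher, against 3.70% of all genes tested. The gene called was Irf8, a transcription factor of the DC lineage. It was at 437 ± 98.6 CPM in biotin-positive libraries, against 191 ± 47.2 CPM in biotin-negative libraries (edgeR adjusted p = 0.000431). Irf8 made up most of the sum. Of the next most abundant, Cd8a had a lower mean in biotin-positive than in biotin-negative libraries (5.44 against 12.2 CPM) and Itgae a higher one (8.99 against 3.00 CPM). The 7 summed to 328 to 569 CPM in biotin-positive libraries, against 122 to 265 CPM in biotin-negative libraries and 339 and 343 CPM in Cd40-null libraries, and the defining marker Clec9a was at 0 in all biotin-positive libraries. Of 7 plasmacytoid DC markers 1 was called lower, against 4.05% of all genes tested, and the list's median log2 fold change was 0.12. The gene called was Spib, an ETS factor, at 74.4 ± 29.8 CPM in biotin-positive libraries, against 290 ± 105 CPM in biotin-negative libraries (edgeR adjusted p = 0.000618). Those 7 summed to 82.6 to 199 CPM in biotin-positive libraries, against 232 to 532 CPM in biotin-negative libraries and 329 and 382 CPM in Cd40-null libraries, while Siglech, a defining marker, averaged 0.696 CPM in the biotin-positive group, against 0.526 CPM in the biotin-negative group. The part of these genes in the receptor differences was not tested.

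Langerhans cell markers, like the mean of Ly75, were higher in biotin-positive libraries. The 3 markers described, Epcam, Cd207 and Mfge8, were all called higher in biotin-positive than in biotin-negative libraries, against 3.70% of all genes tested. The sums were 1373 to 1756 CPM in biotin-positive libraries, against 369 to 807 CPM in biotin-negative libraries and 1009 and 1378 CPM in Cd40-null libraries. Mfge8 made up most of these sums, with means of 1338, 532 and 1098 CPM in biotin-positive, biotin-negative and Cd40-null libraries. In the same order Cd207 averaged 105, 27.6 and 30.2 CPM and Epcam 149, 38.4 and 65.3 CPM. By these 2 genes the Cd40-null libraries stood nearer the biotin-negative group, and by Mfge8 nearer the biotin-positive group. Against Cd40-null libraries edgeR called 0 of the 3 in the biotin-positive group (2.27% of all genes tested). In the biotin-negative group it called 1 of the 3, lower than in Cd40-null libraries (0.317% of all genes tested were called). The part of the 3 markers in the Ly75 values was not tested. Neutrophil markers summed to 17.1 ± 2.06 CPM in biotin-positive libraries, against 31.2 ± 4.49 CPM in biotin-negative libraries (SD, n = 6 each), and were mostly Cxcr2 (medians of 13.5 and 23.1 CPM). S100a9 averaged 0.0110 CPM in the biotin-positive group, against 0.211 CPM in the biotin-negative group, and Camp was at 0 in all 14 libraries. T cell markers summed to 10.7 to 44.2, 4.29 to 72.8 and 20.3 to 85.8 CPM in biotin-positive, biotin-negative and Cd40-null libraries, and B cell markers to 7.30 to 82.8 CPM in biotin-positive, 6.39 to 47.3 CPM in biotin-negative and 10.7 to 58.1 CPM in Cd40-null libraries. NK cell markers stayed at or under 6.74 CPM in every library. Among the tested markers of T, B and NK cells edgeR called 0 in any comparison. Of 10 T cell markers 2 had an unadjusted p under 0.05 between the biotin groups, near the 21.1% of all genes tested.

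**Figure D4:**
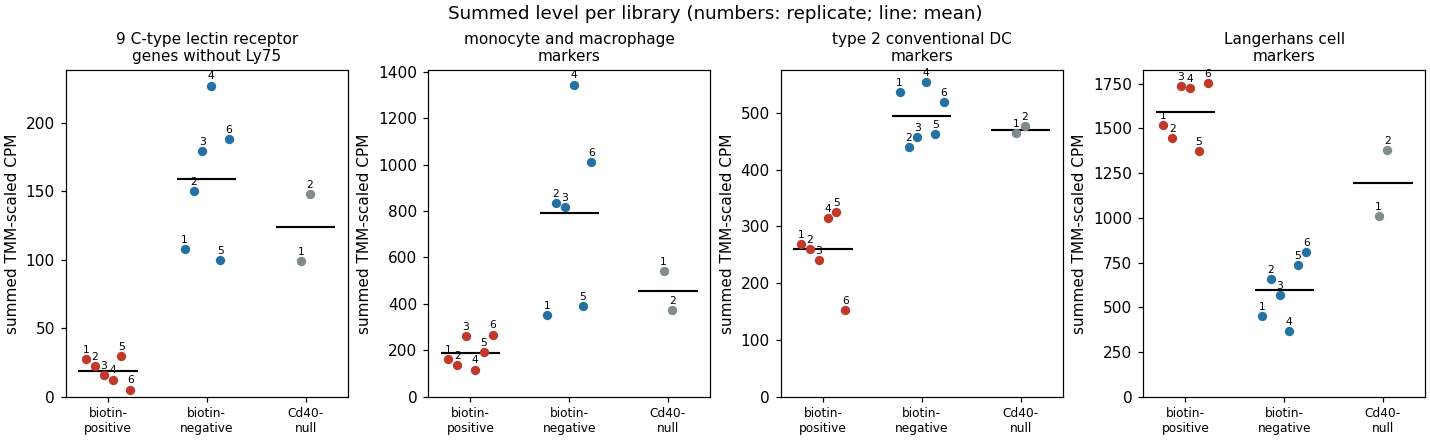
Summed TMM-scaled CPM per library (vertical axes, linear from 0) of the 9 receptor genes without Ly75, of monocyte and macrophage markers, of type 2 conventional DC markers and of Langerhans cell markers; points are libraries, numbers are replicates and lines are group means. The first 3 sums are lower in every biotin-positive than in every biotin-negative library, and the Langerhans cell sum is higher.

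Within groups, the receptor genes did not vary as 1 block. After each group mean was subtracted from log2 CPM, 30 of the 45 pairs of receptor genes had a Pearson r above 0 over the 14 libraries, with a median of 0.18 and a range from -0.79 to 0.75. The highest values were between Clec4a3 and Clec12a (0.75) and between Clec7a and Clec4a2 (0.69), and the lowest were of Ly75 with Clec4n (-0.79) and Clec4a1 (-0.72). These values are descriptions, since the libraries of a group share their sort and low counts add noise. Among 9376 other genes with a mean of at least 5 CPM, the most alike by the same measure were Scn2b for Clec12a (r = 0.93, Spearman rho = 0.53), Dcp1a for Ly75 (0.91, 0.93), Hbp1 for Clec4n (0.91, 0.91), Rnf43 for Clec10a (0.91, 0.80), Zkscan6 for Clec4a2 (0.90, 0.79) and St7 for Clec4a3 (0.90, 0.72). For the others they were Hsp90b1 for Clec4e (0.89, 0.87), Xpo6 for Clec4a1 (0.88, 0.87), Lilrb4 for Clec7a (0.88, 0.63) and Cep135 for Cd209a (0.82, 0.76).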

How the data were processed

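Polyadenylated RNA was amplified with the Smart-seq2 protocol and read as 38 bp paired ends, per the labels' protocols. The submitters' processing notes name Bowtie2 2.1.0, RSEM 1.2.8, DESeq2 1.16.0 and build mm10, without the role of each; the annotation is not given in the sources used here. The authors deposited RSEM expected counts, whole numbers in the table, and a normalized signal for 10321 genes in which each value is the count over a factor common to its library.

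Counts, rounded to whole numbers, were tested in R 4.3.3 with edgeR 4.0.16: filterByExpr by group (min.count 10), TMM factors, 1 quasi-likelihood fit (robust) of all 14 libraries, two-sided tests, and Benjamini-Hochberg adjustment over 14217 genes at 0.05. SE is the size of the log2 fold change over the root of its F value. Total counts were 14518099 to 33260704 per library. Log2 CPM for correlations used a prior count of 2. Genes were positioned in GENCODE M21, and sequences are from RefSeq.

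The rule for named genes took all 10 receptor genes, Cd40, up to 4 genes with the smallest p of each pathway list between the biotin groups and up to 3 called against Cd40-null libraries, the likeness genes, and the most abundant markers. Members and lists were chosen with earlier results of these data known. Alternatives were other scaling and filters, no robust option, DESeq2 1.42.0, limma 3.58.1 (voom, and on log2 of the signal plus 1), a covariate, a replicate block, the 2 groups compared alone, and each replicate left out. The same settings for the pathway genes, bounds without each library, and counts without genes that passed the filter only through biotin-negative libraries were added after seeing the data. The script was tested on simulated data. 1 gene of the marker lists was left out of every sum and count and is not reported here.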

Additional observations from a re-analysis of the deposited data

Results flagged for a closer look

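Among the 6-library groups of the receptor genes, 19 could be tested for a library that stands apart (by Dixon's ratio of gap to range), and 5 were marked. The ratio's rate of about 1 in 20 assumes normal values and does not apply to low counts with ties at 0. A group with a count in 1 library only is always marked, as for Cd209a in the biotin-positive group. Biotin-positive replicate 6 had 2.94 CPM of Clec4a1, with the next library at 0.961 CPM. Biotin-positive replicate 5 had 0.897 CPM of Clec4a2, with the next at 0.329 CPM. Biotin-positive replicate 3 had 0.460 CPM of Cd209a, with the other 5 at 0. Biotin-negative replicate 4 had 28.9 CPM of Clec10a, with the next at 7.22 CPM, and 68.6 CPM of Cd209a, with the next at 0.974 CPM. This library also had the highest sum of monocyte and macrophage markers (1345 CPM) and the highest Ly75 (453 CPM) of its group. The part of either in these values was not tested.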

How the results depend on the processing

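Receptor genes called between biotin-positive and biotin-negative libraries numbered 4, with 7 under DESeq2, 0 with detected genes as a covariate, and 4 to 5 when a replicate was left out. Against Cd40-null libraries 1 was called in the biotin-positive group, with 0 under a replicate block, 0 with the 2 groups alone, 3 under DESeq2 and 0 to 2 with a replicate left out. In the biotin-negative group 0 were called under every setting run. Same-numbered libraries correlated at -0.0328 to 0.0439. These values show no pairing by replicate number but cannot exclude it, since the mouse of each library is not given. Under the block Clec12a against Cd40-null gave a log2 of -2.92 (edgeR adjusted p = 0.0640). Of the pathway genes, calls lost under the block were Prkcd (0.0648) and Syk (0.228) in biotin-positive against Cd40-null, Nfkbiz (0.119) in biotin-negative against Cd40-null, and Clec4b1 (0.0796), Ptgs2 (0.0648) and Mgl2 between the biotin groups.

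Over all genes, the 1102 calls between the biotin groups became 11 with the covariate and 1589 with DESeq2. The 323 calls of biotin-positive against Cd40-null became 129 (block), 803 (DESeq2) and 603 (voom), and 78 to 346 with a replicate left out. The 45 calls of biotin-negative against Cd40-null became 19 (block), 6 (covariate), 29 (2 groups alone), 273 (DESeq2) and 83 (normalized signal), and 12 to 54 with a replicate left out.

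Among called genes, the covariate left Clec4a1 at -5.30 (adjusted p = 0.196), Clec4a3 at -1.72 (0.735), Clec12a at -2.40 (0.348) and Clec10a uncalled (0.342), and the cause was not tested. Directions turned only where no call was made. Between the biotin groups Clec4e went to 0.33 with the covariate. Of biotin-negative over Cd40-null, the block gave Clec7a 0.10, Clec4n 0.77, Clec4e -4.34 and Clec12a 0.12; the covariate gave Clec7a 0.49, Clec4n 2.28, Clec4e -2.68 and Ly75 -0.07; voom and the normalized signal gave Clec4e -1.12 and -0.85. With a replicate left out the ranges were -1.46 to 0.69 (Clec7a), -0.79 to 1.46 (Clec4n) and -0.32 to 1.06 (Clec4e), and for Clec4a3 in biotin-positive over Cd40-null -1.13 to 0.57. Cd209a gave no usable value under DESeq2 or, against Cd40-null, under the block. Between the biotin groups Clec10a was not among the genes tested with the 2 groups alone or the normalized signal. Values of the rarest genes rest on few counts: Clec10a, Cd209a and Clec4a2 had 0, 7 and 34 counts in all over the biotin-positive libraries.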
